A study of Rattus norvegicus with 11 samples.

Results

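The genes described here are those of cytotoxic lymphocytes that the arrays measured. They are perforin (Prf1), the granzymes Gzmf, Gzmb, Gzmc, Gzmk and Gzmm, the granule protein Nkg7, the co-receptor gene Cd8a and the T cell receptor gene Cd3e. They were found by the RefSeq accession of the probe, and each of the 9 genes had 1 probe with 1 spot, out of 13903 genes with a symbol on the array. The list was chosen by the measured differences between the sides of these same arrays, which were known when it was drawn up, so their differences, and whether they were past a threshold, are given as a description that supports nothing. The samples were trigeminal ganglia (TRG) of male Wistar rats, all of which had received 50 µl of CFA (complete Freund's adjuvant, killed mycobacteria in paraffin oil, at 1 mg/ml) under the skin of the whisker pad on 1 side, under ketamine and xylazine anaesthesia, and were killed on day 7 under thiopental. The CFA group held the ganglia of the injected side of rats 1, 2, 3, 5, 6 and 8, and the contralateral group those of the other side of rats 1, 2, 3, 5 and 6, so the controls came from inflamed animals and no saline-injected rat was among the 11 arrays. The ages of the rats are not given in the sources used here.

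Cytotoxic T cells and natural killer (NK) cells kill by emptying granules onto a target cell. Perforin forms pores in the membrane of the target, and the granzymes, which are serine proteases, enter through them and start cell death. Cd3e is a chain of the T cell receptor complex, Cd8a is part of the co-receptor that binds MHC class I, and Nkg7 lies in the membrane of the granules. Such cells are few in a resting sensory ganglion, where neurons, satellite glia and Schwann cells make up most of the tissue.

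Of the 9 genes, 2 were past the study's threshold (an unadjusted p of 0.05 or less with an absolute fold change over 2), and these went in opposite directions: Prf1 was 3.08-fold lower and Gzmf 3.54-fold higher on the CFA side. The same threshold was passed by 2.02% of the 24684 probes, 1.15% of them higher and 0.863% lower, and nothing is read from the count of the 9 genes, since it follows from their choice. The other 7 genes had log2 differences (CFA minus contralateral) between -0.46 and -0.05. Below 0 lay 8 of the 9 genes, as did 57.5% of all probes, and the median over the 9 genes was -0.34 against -0.04 over all probes. Over all 24684 probes, 0 passed an adjusted p of 0.05 (Benjamini-Hochberg, limma), and 2659 reached an unadjusted p of 0.05. All values below are quantile-normalised log2 signals of the scanner's background-subtracted intensity, and they are compared between arrays for 1 probe at a time, never between genes. Where 5 contralateral values are listed, they follow the order of rats 1, 2, 3, 5 and 6. In whole ganglia, fewer cells of a type and less RNA per cell cannot be told apart.

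The arrays lay on 5 slides, and the slides were not balanced between the sides. Slide 2, with CFA rat 1 and contralateral rats 5 and 6, was the only one that carried both groups. Slides 1 (contralateral rat 3) and 3 (contralateral rats 1 and 2) held no CFA array, and slides 4 (CFA rats 2 and 3) and 5 (CFA rats 5, 6 and 8) no contralateral array. Slides 1 to 3 were scanned on 1 day and slides 4 and 5 on 1 further day each. Apart from the arrays of slide 2, slide and group cannot be told apart. No rat had both of its ganglia on the same slide, so a difference within a rat is also one between slides. A difference within slide 2 sets CFA rat 1 against the mean of contralateral rats 5 and 6.

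The 300 bases around the start site (250 before it and 50 after it, RefSeq, build GRCr8) are shown for 3 of the genes, namely the pair that passed the threshold in opposite directions and Gzmb, whose level followed that of Cd3e from array to array. Capitals mark matches, on either strand, to the RUNX motif TGTGGT, the ETS motif CAGGAAG, the AP-1 motif TGANTCA, the CRE core TGACGT and the TATA box TATAAA. Runx and Ets family factors are known regulators of lymphocyte genes, and AP-1 and CREB bind on T cell activation.
Prf1, chr20:29788790-29789089, + strand: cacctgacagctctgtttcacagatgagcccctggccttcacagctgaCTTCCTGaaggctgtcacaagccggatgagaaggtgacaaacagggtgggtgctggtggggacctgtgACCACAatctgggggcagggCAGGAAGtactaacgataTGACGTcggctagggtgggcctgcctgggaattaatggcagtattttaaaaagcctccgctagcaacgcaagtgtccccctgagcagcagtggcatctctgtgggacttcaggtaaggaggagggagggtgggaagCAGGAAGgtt
Gzmf, chr15:33988838-33989137, - strand: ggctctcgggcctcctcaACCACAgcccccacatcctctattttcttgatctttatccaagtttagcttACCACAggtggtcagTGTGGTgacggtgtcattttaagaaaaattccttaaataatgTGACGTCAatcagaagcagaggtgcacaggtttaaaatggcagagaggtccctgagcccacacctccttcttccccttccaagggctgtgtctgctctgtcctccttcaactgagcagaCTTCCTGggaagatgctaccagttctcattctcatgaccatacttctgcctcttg
Gzmb, chr15:34462420-34462719, - strand: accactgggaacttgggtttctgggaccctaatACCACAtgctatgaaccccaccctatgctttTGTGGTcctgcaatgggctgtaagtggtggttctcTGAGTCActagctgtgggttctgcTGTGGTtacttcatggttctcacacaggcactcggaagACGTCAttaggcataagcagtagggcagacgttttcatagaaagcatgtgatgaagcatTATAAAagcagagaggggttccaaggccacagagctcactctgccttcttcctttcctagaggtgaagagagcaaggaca
The promoter windows of all 9 genes were in the RefSeq table. The RUNX letters were in 7 of the 9 windows (Prf1, Nkg7 and the 5 granzymes) and in 17.3% of 33469 windows of the same length. The ETS letters were in 4 (Prf1, Gzmf, Nkg7 and Cd3e) against 12.5%, and the CRE core in 4 (Prf1, Gzmf, Gzmb and Cd3e) against 7.94%. The AP-1 letters were in the window of Gzmb only, against 7.33% of all windows, the TATA box in those of Gzmb and Gzmk, against 14.2%, and the GATA letters AGATAA in none of the 9, against 11.6%. The windows of Prf1 and Gzmf, whose levels differed between the sides in opposite directions, both held RUNX, ETS and CRE letters. A match of letters is a description and shows no bound factor. Gzmb and Gzmc are next to each other on chromosome 15 in that annotation, and Gzmf lies in the same cluster with 6 other protein-coding genes between it and Gzmc, Gzmbl1, Gzmbl3 and Gzmc-ps3 among them. The probe sequences were not among the files, so whether a granzyme probe also binds the RNA of such a relative was not tested.

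**Figure D1:**
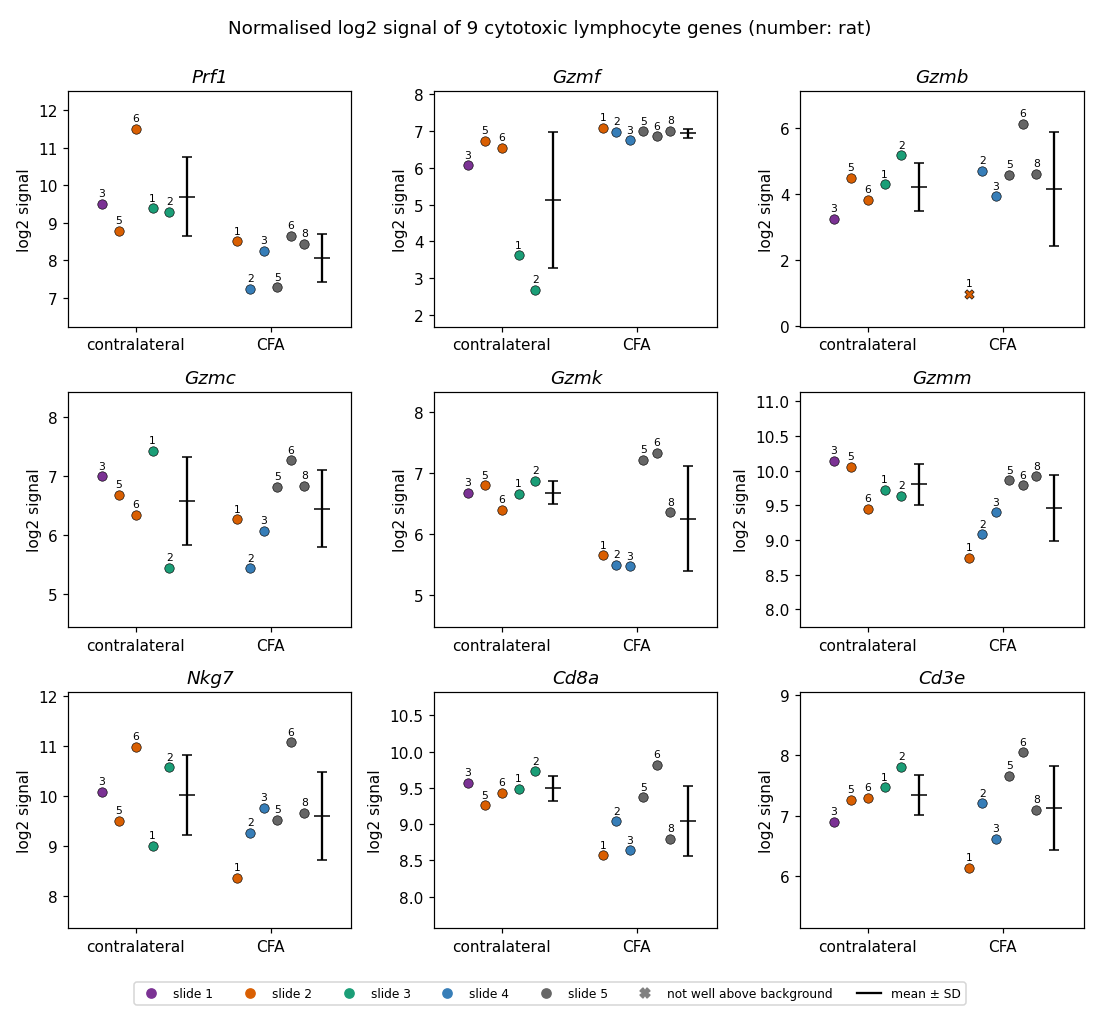
Normalised log2 signal (vertical axes, each panel on its own scale) of the 9 genes on the 5 contralateral and 6 CFA arrays, with 1 point per array, coloured by slide and numbered by rat; a cross marks a spot not well above background, and bars give mean ± SD. The groups are apart for Prf1 and Gzmf, as they are for 1.19% of all probes, and overlap for the other 7 genes. Nothing is read from this, since the genes were chosen with their differences known. For Gzmf the groups nearly touch, with a lowest CFA value of 6.75 and a highest contralateral value of 6.73. The low contralateral points of Gzmf (3.62 and 2.67) are the arrays of slide 3.

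Perforin had the most negative log2 difference of the 9 genes, most of which had a lower mean on the CFA side. Prf1 had log2 signals of 9.39, 9.29, 9.50, 8.78 and 11.50 on the 5 contralateral arrays. On the 6 CFA arrays the lowest signal was 7.24 (rat 2), the median 8.35 and the highest 8.66 (rat 6). The lowest contralateral array, that of rat 5, lay just above the highest CFA array, and the contralateral array of rat 6 stood far above all others. The groups did not overlap, which held for 1.19% of all probes. The means were 8.07 ± 0.63 (SD, n = 6) and 9.69 ± 1.05 (SD, n = 5), a log2 difference of -1.62 (standard error 0.47).

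In every rat that gave both ganglia the CFA ganglion was the lower one, with a log2 difference of -0.87 in rat 1, -2.05 in rat 2, -1.25 in rat 3, -1.49 in rat 5 and -2.84 in rat 6. In each of these rats the ganglia lay on different slides, so every such difference is also one between slides. Without the contralateral array of rat 6 the difference between the group means was -1.17. Within slide 2 it was -1.62, a value that rests on rat 6, since CFA rat 1 (8.51) and contralateral rat 5 (8.78) were close to each other. The Prf1 spot was well above background on all 11 arrays, with a raw median signal of 156 to 515 on the CFA arrays and 381 to 2491.5 on the contralateral arrays over a background of 15 to 48. With scan day as a block the log2 difference was -1.18 (standard error 0.91), a value that rests on the CFA array of rat 1.

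Gzmf was the only one of the 9 genes with a higher mean on the CFA side, and its difference came from the contralateral arrays. Granzyme F belongs to the family of granule proteases encoded in the cluster on chromosome 15. Its log2 signal varied little among the CFA arrays, with a lowest value of 6.75 (rat 3), a median of 6.98 and a highest of 7.09 (rat 1). On the 5 contralateral arrays it was 3.62, 2.67, 6.07, 6.73 and 6.54. Contralateral rats 5 and 6 on slide 2 were thus almost at the CFA level, and those of rats 1 and 2, which share slide 3, were the low ones. The means were 6.95 ± 0.12 (SD, n = 6) and 5.12 ± 1.85 (SD, n = 5), and the log2 difference was 1.82 (standard error 0.69).

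Leaving out the contralateral arrays of slide 3 brought the difference of Gzmf to 0.50, and within slide 2 it was 0.46. Neither value reaches the 2-fold change of the threshold. The raw median signal of the spot was 139 to 192.5 on the CFA arrays and 43, 37.5, 89, 135.5 and 125 on the contralateral arrays, over a background of 17 to 27, so that the low arrays were close to background although the scanner software marked all 11 spots as well above it. Without background correction the difference was 0.98, and after normexp correction it was 0.65. Within single rats it was 3.47 and 4.31 in rats 1 and 2, and 0.68, 0.26 and 0.33 in rats 3, 5 and 6.

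The low values of Gzmf on slide 3 were shared by spots that lay beside it on the array. Its spot is in row 115 and column 34. The spot in the next column was that of Ccr7, the chemokine receptor that guides T cells and dendritic cells to lymph nodes, and it had 2.23 and 1.80 on slide 3 against 4.93, 6.20 and 5.96 on the other contralateral arrays and 6.06 to 6.51 on the CFA arrays. A lncRNA spot 1 row further on had 4.79 and 4.12 on the arrays of slide 3, 7.09, 8.34 and 8.63 on the other contralateral arrays and 8.01 to 8.59 on the CFA arrays. Over the 11 arrays, with the group means removed, Pearson's r with Gzmf was 0.985 for Ccr7 and 0.978 for this lncRNA. Of the 13 transcripts whose spots lie within 1 row and 2 columns of Gzmf, 2 had an r over 0.9, while around the other 8 genes no neighbour did.

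The genes most like Gzmf across arrays lay in the same part of the array. With group means removed, the 3 named genes with the highest r over the 11 arrays were Defb9 (0.994, row 137), which encodes a beta-defensin, Nipal4 (0.992, row 34), which encodes a magnesium transporter of the skin, and Krtap10-2 (0.991, row 90), which encodes a hair keratin-associated protein. Their log2 signals on the 2 arrays of slide 3 were 4.64 and 4.08, 2.70 and 2.20, and 4.03 and 3.72, in each case below the whole range of their CFA arrays. Of the 100 single-spot probes most correlated with Gzmf, 98 lay in the first 133 of the 532 rows, where 24.9% of the 13813 candidate probes lie, and all 100 lay between rows 2 and 137. For the other 8 genes that count was between 19 and 35 of 100. Subtraction of the median residual of each band of rows left a log2 difference of 1.62 for Gzmf and of -1.37 for Prf1. How much of the difference of Gzmf goes with the slide or with the place on the array was not tested. These correlations describe 11 arrays of 6 rats that share slides.

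**Figure D2:**
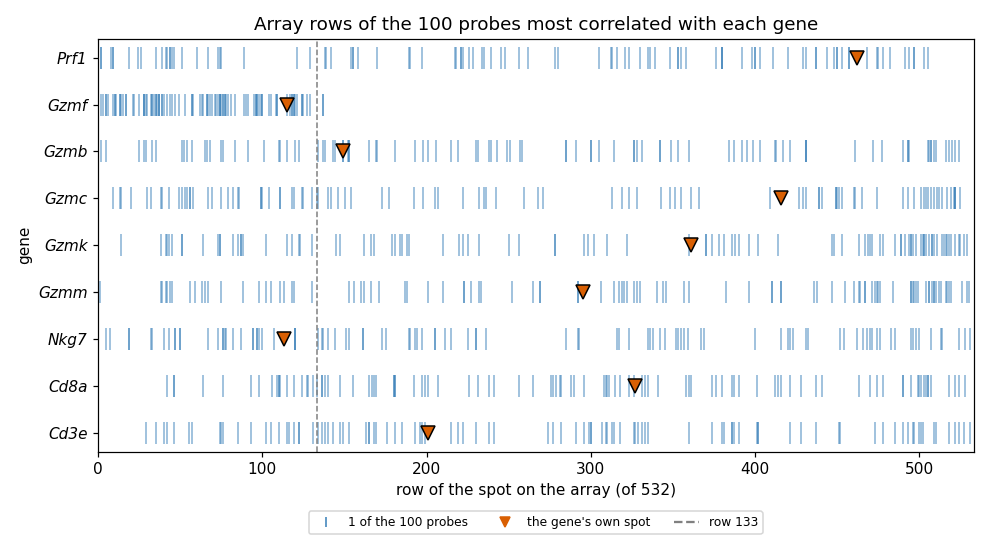
Row on the array (horizontal axis, of 532 rows) of the 100 single-spot probes whose deviations from the group means correlated best with each of the 9 genes; each tick is 1 probe, the triangle is the gene's own spot and the dashed line stands at row 133. The ticks of Gzmf end at row 137, and those of the other 8 genes are spread over the array.

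The other 4 granzymes differed little between the sides on average, and for each of them that difference was smaller than the SD of the CFA arrays. Granzyme B is the protease that cleaves caspases in the target cell. Gzmb had log2 signals of 4.31, 5.18, 3.26, 4.51 and 3.83 on the 5 contralateral arrays, and on the CFA arrays a lowest value of 0.99 (rat 1, where the spot was not well above background), a median of 4.61 and a highest of 6.13 (rat 6). The CFA arrays thus held both the lowest and the highest value, and the log2 difference was -0.05 (standard error 0.76). Without the CFA array of rat 1 it was 0.58, and within slide 2, which rests on that array, -3.18.

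Gzmk, a granzyme of memory T cells, had 6.66, 6.88, 6.68, 6.80 and 6.40 on the 5 contralateral arrays. On the CFA side it was 5.65, 5.50 and 5.47 in rats 1, 2 and 3 and 7.22, 7.34 and 6.36 in rats 5, 6 and 8. The contralateral arrays were close together (SD 0.18), and the CFA arrays fell into a low set on slides 2 and 4 and a set on slide 5 around or above the contralateral level. The log2 difference was -0.43 (standard error 0.36).

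Gzmm, a granzyme of NK cells, ranged from 8.74 to 9.92 on the CFA arrays with a median of 9.59, and was 9.72, 9.64, 10.14, 10.06 and 9.45 on the contralateral arrays. Its log2 difference was -0.34 (standard error 0.23), and it was lower on the CFA side in 4 of 5 rats. Gzmc had 7.43, 5.45, 7.00, 6.68 and 6.35 on the 5 contralateral arrays, and a lowest value of 5.44, a median of 6.55 and a highest of 7.27 on the CFA arrays. Its log2 difference was -0.13 (standard error 0.39), the groups overlapped over nearly their whole ranges, and the difference was 0.15 after the row-band correction.

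Cd3e, Cd8a and Nkg7, the markers of T cells and of granules among the 9 genes, were also lower on the mean of the CFA arrays, with overlapping groups. Not every T cell marker was lower: Cd3d had a log2 difference of 0.26 (standard error 0.27) and Cd3g of 0.05 (standard error 0.17). Of the 16 other genes of the T cell receptor and its co-receptors, 12 lay below 0. Cd3e had 7.47, 7.81, 6.90, 7.26 and 7.29 on the 5 contralateral arrays, and a lowest value of 6.13 (rat 1), a median of 7.14 and a highest of 8.05 (rat 6) on the CFA arrays. Its log2 difference was -0.22 (standard error 0.32), and -0.02 without the CFA array of rat 1. Cd8a had 9.49, 9.73, 9.57, 9.26 and 9.43 on the contralateral arrays, and 8.57 (rat 1), 8.92 and 9.82 (rat 6) as the lowest, median and highest on the CFA side. Its log2 difference was -0.46 (standard error 0.22), and 4 of the 6 CFA arrays (rats 1, 2, 3 and 8) lay below all contralateral arrays.

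Nkg7 had 9.0, 10.58, 10.09, 9.50 and 10.99 on the 5 contralateral arrays, and 8.36 (rat 1), 9.60 and 11.08 (rat 6) as the lowest, median and highest on the CFA arrays. It was high on both sides of rat 6. The log2 difference was -0.42 (standard error 0.47), and -1.89 within slide 2.

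The CFA array of rat 1 was the lowest of the 11 for 5 of the 9 genes (Gzmb, Gzmm, Nkg7, Cd8a and Cd3e), and the CFA array of rat 6 was the highest for 5 (Gzmb, Gzmk, Nkg7, Cd8a and Cd3e). In rats 1, 2 and 3, Gzmk, Gzmm, Nkg7, Cd8a and Cd3e were each lower on the CFA side, by 0.29 to 1.39 on the log2 scale. In rat 6 the same genes were higher on the CFA side, by 0.09 to 0.94, and in rat 5 they differed by between -0.20 and 0.43. The CFA arrays of rats 5 and 6 share slide 5. Since slide 2 and its scan day hold rat 1 as their only CFA array, a fit with slide or scan day as a block follows that array: with slide as a block Gzmb, Gzmm and Cd3e passed the study's threshold, all lower, and with scan day as a block Gzmk passed as well, while Prf1 and Gzmf passed in neither fit.

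**Figure D3:**
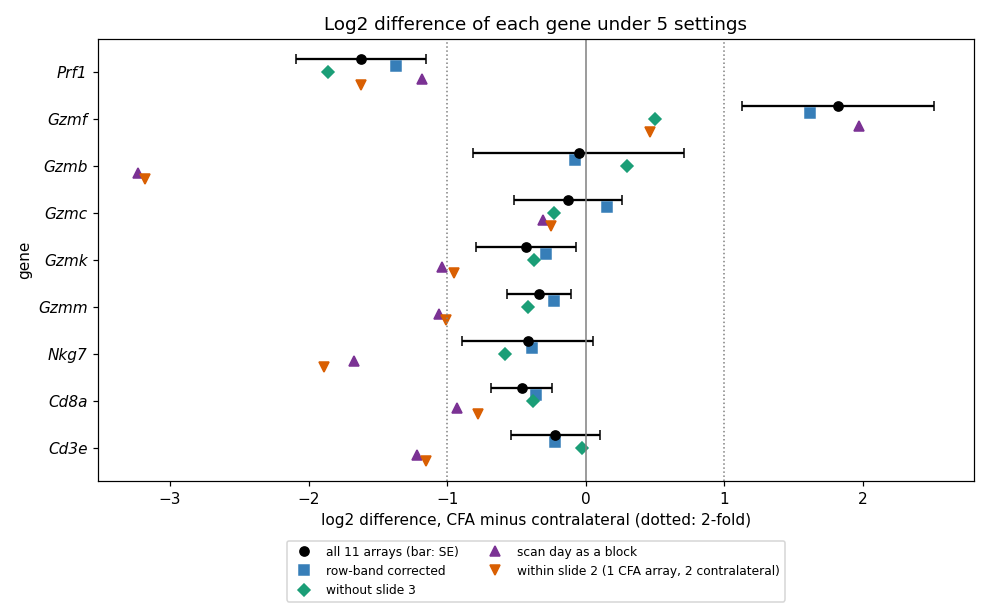
Log2 difference, CFA minus contralateral (horizontal axis), of the 9 genes over all 11 arrays (circle, with standard error) and under 4 other settings; dotted lines mark 2-fold. Prf1 lies between -1.86 and -1.18 under all 5 settings, with a standard error of 0.91 for scan day as a block. Gzmf drops from 1.82 to 0.50 without slide 3 and to 0.46 within slide 2, and Gzmb moves from -0.05 to -3.18 within slide 2. The settings share arrays, and those with scan day as a block and within slide 2 rest on the CFA array of rat 1.

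From array to array, Cd3e was most correlated with Gzmb, Cd8a and Gzmk, and least with Prf1 and Gzmf. With the group means removed, Pearson's r over the 11 arrays was 0.90 between Gzmb and Cd3e, 0.88 between Cd8a and Cd3e, 0.80 between Gzmk and Cd8a, 0.78 between Gzmk and Cd3e, 0.71 between Gzmb and Cd8a, 0.70 between Gzmk and Gzmm and 0.58 between Gzmb and Gzmk. Against Cd3e it was 0.59 for Nkg7, 0.48 for Gzmm, 0.18 for Gzmc, -0.15 for Prf1 and -0.33 for Gzmf. Nkg7 had 0.64 with Cd8a and 0.62 with Gzmb, and Prf1 had 0.47 with Nkg7 and 0.24 with Gzmf. The arrays share rats and slides, so these coefficients are given as a description.

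The genes most like Cd3e were genes of lymphocytes. The 3 highest were Cd27 (r = 0.973), a co-stimulatory receptor of T and NK cells, Klrd1 (0.955), the CD94 chain of NK receptors, and Cd247 (0.945), the zeta chain of the T cell receptor. All of them had their lowest signal on the CFA array of rat 1 and their highest CFA signal on that of rat 6. Cd27 was well above background on only 7 of the 11 arrays. Cd27 and Klrd1 were also, with Cd3e itself, the 3 genes most like Gzmb (0.911, 0.896 and 0.902). The Gzmb spot was not well above background on the CFA array of rat 1. The other granzymes had other neighbours: Gzmk was most like Marchf5 (0.957), Cpe (0.948) and Asb8 (0.945), Gzmm like Sft2d2 (0.876), Ift70b (0.869) and Gpn3 (0.852), and Gzmc like Nmu (0.916), Prim1 (0.903) and Prim2 (0.892), none of them a marker in the lymphocyte lists. Among other markers of T cells, Cd3g had an r of 0.78 with Cd3e, Lck of 0.71, Cd2 of 0.25, Cd5 of 0.22, Cd3d of -0.50 and Cd8b of -0.63, and Cd4 was well above background on only 3 of 11 arrays. Of the NK cell markers, Klrk1 had an r of -0.74 with Cd3e, and Ncr1 was well above background on 3 arrays. The 9 genes did not vary as 1 set: the 3 nearest genes were from the lymphocyte lists for Cd3e and Gzmb, and for none of the other 7.

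The genes most like Nkg7 were Gfi1 (0.986), a transcription factor of granulocyte development, and Mcpt8l2 and Mcpt8 (both 0.965), proteases of the mast cell and basophil lineage. Mcpt8 had log2 signals of 14.17 on the CFA and 14.33 on the contralateral array of rat 6, and 10.95 on the CFA array of rat 1, the extremes that Nkg7 also had. The granulocyte genes Cebpe (0.93) and Mmp8 (0.92), which were picked after their values had been seen, varied with Nkg7 too, as did the granule genes Cst7 (0.84), Srgn (0.81) and Gzma (0.69), while the mast cell protease Cpa3 had 0.32. Of the mast cell list, with 14 of 15 genes measured and all 14 well above background on every array, the mean log2 level was 7.86 to 8.99 on the CFA arrays and 8.05 to 9.63 on the contralateral arrays. The part of such cells in the level of Nkg7 was not tested.

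For Prf1 the most alike were Ranbp10 (0.934), Cldn34a (0.928), a claudin-like gene, and Alox15 (0.923), a lipoxygenase of reticulocytes and eosinophils. Ranbp10 had 14.12 and Alox15 13.35 on the contralateral array of rat 6, the highest of all arrays in each case. Red cell genes, picked after their values had been seen, varied in the same way, with an r of 0.91 for the erythroid factor Klf1, 0.87 for the haem synthesis enzyme Alas2 and 0.86 for the band 3 anion exchanger Slc4a1, but of 0.25 for Hbb. The mean log2 level of the red blood cell list (5 of 7 genes measured, all well above background on every array) was 14.04 to 15.46 on the CFA arrays and 14.48 to 15.83 on the contralateral arrays, highest on the contralateral array of rat 6. None of these 5 genes passed the study's threshold. Their median log2 difference was -0.05. Of the red cell genes named here, Klf1 had -0.43 (standard error 0.36) and Alas2 -0.44 (standard error 0.43). Slc4a1, with an r close to that of Alas2, had -0.05 (standard error 0.61), and Hbb had -0.01 (standard error 0.12). The part of red blood cells in the level of Prf1 was not tested.

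Cd8a was most like C14h4orf19 (0.941), Tagln3 (0.929), a cytoskeletal protein of neurons, and Cfap36 (0.927), a cilium-associated protein. Tagln3 changed little over the arrays, with log2 signals of 15.89 to 16.17.

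**Figure D4:**
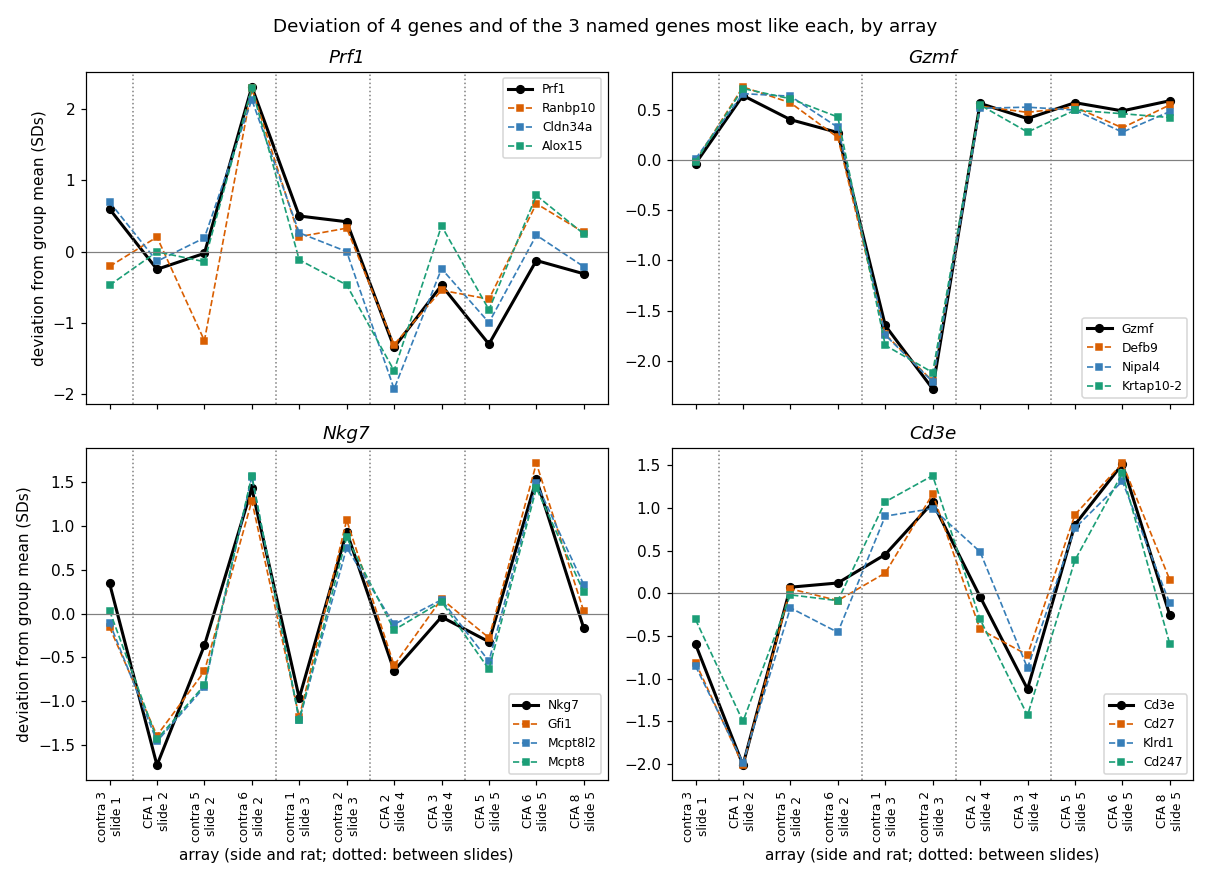
Deviation of Prf1, Gzmf, Nkg7 and Cd3e, and of the 3 named genes most like each, on the 11 arrays in order of slide. The vertical axes give the distance from the mean of all 11 arrays, in units of its standard deviation. Group means were not subtracted, although the axis label names them, so the difference between the sides remains in the values. Gzmf and its 3 genes drop on both arrays of slide 3, Prf1 and its genes peak on the contralateral array of rat 6, Nkg7 and its genes peak on both arrays of rat 6, and Cd3e and its genes are lowest on the CFA array of rat 1.

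The wider set of lymphocyte genes showed few differences between the sides. Apart from the 9 genes, 8 lists of granule, T cell, NK cell, cytokine receptor and transcription factor genes held 125 genes, of which 100 were measured and 69 were well above background on every array. Past the study's threshold were 2 of the 100, both higher on the CFA side (1.15% of all probes were), and none was lower (0.863% of all probes). The log2 difference was below 0 for 59 of the 100, against 57.5% of all probes, and their median was -0.11. At an unadjusted p of 0.05 or less in limma there were 8 of the 100, beside 2659 of all 24684 probes. At an adjusted p of 0.05 there were 0. The lists were chosen with earlier results of these arrays known.

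The first of the higher genes was Ccr7, the neighbour of Gzmf, with a log2 difference of 2.09 (standard error 0.77, adjusted p = 0.42, two-sided exact permutation p = 0.00649). The spot passed the scanner's background test on 6 CFA arrays and 3 contralateral ones, its difference within slide 2 was 0.27, and it did not pass the threshold without slide 3. The other was Klrc2, an NKG2 receptor of NK cells, which passed on the values as measured, with a mean log2 signal of 2.45 on the CFA arrays (1.36 to 3.32) and 1.1 on the contralateral arrays (0.99 to 1.26). The scanner software placed it well above background on 2 CFA arrays and on no contralateral array. Its contralateral level is therefore only a bound, at which no fold remains, and no difference is read from it (adjusted p = 0.239, two-sided exact permutation p = 0.00433). The smallest permutation p of 6 arrays against 5 is 0.00216, and the permutation treats arrays as exchangeable although slide and side go together. Both passed the threshold with the rat as a block, where Thy1 was added.

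By role, no further gene of the granules or of their release passed the threshold. Of the other granzyme and granule genes (6 measured), 0 passed the threshold and 3 were below 0, with a median of -0.10 (-0.61 within slide 2). With scan day as a block, Gzma and Cst7 passed as lower. Gzma, the granzyme A gene, had a log2 difference of -0.27 (standard error 0.46) and followed Cd3e over the arrays (r = 0.86). Cst7, which encodes the granule cystatin F, had -0.27 (standard error 0.49), and Srgn, the proteoglycan that stores granule proteases, -0.27 (standard error 0.33). Serpinb9, the inhibitor of granzyme B, had the smallest p of this list, with 0.21 (standard error 0.23, adjusted p = 0.716). Of the 11 measured genes of granule release none passed, their median was 0.01, and Rab27a, the GTPase that docks granules at the membrane, had -0.21 (standard error 0.09, adjusted p = 0.458).

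Among the receptors and signals of T and NK cells, Klrc2 and Ccr7 were the genes past the threshold. Of 16 genes of the T cell receptor and its co-receptors 0 passed and 12 were below 0 (median -0.24). Cd7, a surface receptor of T and NK cells, had the smallest p among them, with a log2 difference of -0.57 (standard error 0.14, unadjusted p = 0.00219 and adjusted p = 0.261, limma) and signals of 9.65 to 10.25 on the CFA and 10.17 to 10.77 on the contralateral arrays. Of 9 T cell signalling genes 7 were below 0 (median -0.22), with Grap2, an adaptor of the T cell receptor, at -0.66 (standard error 0.31, adjusted p = 0.477). Of 21 NK cell receptor genes 1 was past the threshold (Klrc2) and 12 were below 0 (median -0.09). Of 15 cytokine and chemokine receptors 1 was past it (Ccr7) and 9 were below 0 (median -0.11).

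Death ligands and effector cytokines (11 genes) had a median of -0.10, with 7 below 0 and Ltb, lymphotoxin beta, at -0.27 (standard error 0.12, adjusted p = 0.468). Transcription factors of lymphocytes (11 genes) had a median of 0.23, with 4 below 0. MHC class I presentation genes (14), whose products display peptides to Cd8a-bearing cells, had 3 below 0 and a median of 0.12, and Calr, the chaperone calreticulin, had 0.41 (standard error 0.26, adjusted p = 0.553). No gene of these 3 lists passed the threshold.

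Lists of other cells of the ganglion stood beside these as follows. Of 7 B cell genes 1 passed, Pax5, the B cell identity factor, at 1.17 (standard error 0.47, adjusted p = 0.435), with 5.20 and 4.94 on the contralateral arrays of slide 3 against 6.61 to 7.71 on the other contralateral arrays and 0.30 within slide 2, and it did not pass with the rat as a block, where its difference was 1.19. Of 12 macrophage, 14 mast cell and 5 red blood cell genes none passed, and their medians were -0.04, -0.18 and -0.05. Their smallest p values belonged to Fcgr1a, a macrophage Fc receptor (-0.33, standard error 0.16), Hdc, which makes histamine (-0.18, standard error 0.12), and Alas2 (-0.44, standard error 0.43).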

How the data were processed

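RNA of 11 trigeminal ganglia was measured on 1-colour Agilent arrays, 6 of the CFA and 5 of the contralateral side, grouped by the sample labels. The intensity values of each spot were deposited by the authors as scanner output (Agilent Feature Extraction 11.0.1.1 per the labels, design build rn4 per the file headers), with a spatially detrended background already subtracted and no normalisation between arrays. A second table of intensities, quantile normalised by the authors in limma, served as an alternative. The background correction behind that table was not stated in the sources used here.

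Control spots (1417 of 43553) were left out and spots marked as outliers set to missing. Processed signals were put on the log2 scale, quantile normalised over 42136 spots and averaged by probe, which gave 24684 probes, tested in limma 3.58.1 under R 4.3.3 without covariates and adjusted by Benjamini-Hochberg. The number of arrays limits the precision. The median processed signal was 74.6 to 117 on the CFA and 87.9 to 96.4 on the contralateral arrays, with 68.9% to 82.8% of spots well above background. The code was tested on simulated data.

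Accessions were named with RefSeq tables of a later assembly, for names and for the promoter windows, and 14274 of 15323 mRNA probes were matched. The 9 genes, the lists and the tests were chosen with earlier results of these data known. Named were the 9 genes, the genes of each list past the threshold (or that with the smallest p), and the 3 named probes, well above background on at least 6 arrays, with the highest Pearson's r to Prf1, Gzmf, Nkg7, Cd8a and Cd3e. The nearest genes of Gzmb, Gzmc, Gzmk and Gzmm and other markers named with an r were added after their values had been seen. A gene with several probes is given by the brightest. Position was corrected with the median residual in 20 bands of rows and 3 classes of signal. The slides were told from equal scan times in the headers.

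The labels give each ganglion the number of its rat, so equal numbers are taken as the same animal. Both ganglia of a rat, set against each other after the group means were removed, had an r across probes of -0.083 to 0.133. It was over 0.1 in 1 of 5 rats, and in 0 of 5 was the other ganglion of the rat the most similar array. Alternatives were the scaling, the background correction, the authors' table, a floor of log2 4, a filter on dim probes, outlier spots, row bands, variance moderation, rat, slide and scan day as a block, all probes of a gene, and leaving out each array. For the correction by normexp (offset 50) and for uncorrected values the median spot signal was used, since no mean signal was read from the files. Figures were drawn with matplotlib. A list of neuron and glia genes is not reported here.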

Additional observations from a re-analysis of the deposited data

Results flagged for a closer look

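An array far from the others of its group was looked for in 46 groups of values (the 9 genes and the named genes of the lists, on each side), with Dixon's test at 95%, and 6 were found. Chance gives such a value in about 1 of 20 groups. Prf1 stood at 11.5 on the contralateral array of rat 6, with 8.78 to 9.50 on the other contralateral arrays. Rab27a was at 12.18 on the CFA array of rat 3, against 12.50 to 12.63 on the other CFA arrays. Ltb was at 11.36 on the same array, against 11.86 or more on the other CFA arrays. Ikzf3, an Ikaros family factor of lymphocytes, was at 4.51 on that array and at 1.00 to 1.44 on the other CFA arrays, where its spot was not well above background. On the contralateral array of rat 5 Ikzf3 was at 1.05 against 0.99 to 1.00, all below that limit. Fcgr1a, a macrophage Fc receptor, was at 11.08 on the contralateral array of rat 5, against 11.47 to 11.51 on the others.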

How the results depend on the processing

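Of the 9 genes, 2 passed the study's threshold (Prf1 lower, Gzmf higher). The count was 1 (Prf1) with normexp and without background correction, and 1 (Prf1) without slide 3, a setting chosen after seeing the data. It was 3 with slide as a block (Gzmb, Gzmm and Cd3e, all lower) and 4 with scan day as a block (Gzmb, Gzmk, Gzmm and Cd3e, all lower). Neither Prf1 nor Gzmf passed in these block fits. Leaving out 1 array gave 1 to 2, with 1 without the contralateral array of rat 1, where Gzmf was lost. With the rat as a replicate block the same 2 genes passed, as a fixed and as a random effect, with log2 differences of -1.70 for Prf1 and 1.81 for Gzmf in the fixed block. Of the 100 other lymphocyte genes 2 passed. The count was 0 with normexp and without background correction, 1 with a floor, 1 with the filter on dim probes and 1 without slide 3, 5 with slide as a block (1 higher, 4 lower) and 13 with scan day as a block (1 higher, 12 lower). Leaving out 1 array gave 1 to 5, with 4 without the CFA array of rat 1, 5 without the contralateral array of rat 6 and 1 without that of rat 1. With the rat as a fixed replicate block it was 3. Of all 24684 probes, 498 passed in the main fit, 16 with normexp and 47 without background correction. With a floor 153 passed, and with the rat as a fixed block 370, while 351 passed without slide 3. With slide as a block 632 passed (337 higher, 295 lower), and with scan day as a block 444 (223 higher, 221 lower). The filter on dim probes left 18597 probes, of which 301 passed. Leaving out 1 array gave 330 to 796 of all probes. The log2 difference of Prf1 was below 0 under all 27 alternatives (-1.86 to -1.17) and that of Gzmf above 0 (0.46 to 2.22). Gzmb changed sign, from -3.23 to 0.58, and Gzmc, from -0.41 to 0.15, without either passing the threshold on the positive side. The causes were not tested. Low signals over background limit Gzmf on slide 3, Gzmb on the CFA array of rat 1 and Klrc2.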
